A study of Mus musculus with 10 samples.

Results

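The proteins of the small subunit of the mitochondrial ribosome were followed in mouse oocytes with and without CTCF. The members were all probe sets whose single gene symbol in the platform annotation begins with Mrps and a digit. This gave 52 probe sets for 29 genes, of 18193 genes with a single symbol on the array, and the 29 genes are all the protein-coding genes of that name in the RefSeq table used for gene names. Of the 52 probe sets, 47 passed the filter on low signal and 5 did not, and each of the 29 genes kept at least 1 probe set. Mrps2 and Mrps16 were singled out when the set was chosen because they were already known to change in opposite directions in these data, so their directions are given as a description.

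Mitochondria make a few core subunits of the respiratory chain on ribosomes of their own. The ribosomal RNAs come from mitochondrial DNA, and every ribosomal protein is encoded in the nucleus, made in the cytosol and imported. The small subunit binds the messenger RNA and reads its codons, and the large subunit joins the amino acids. Some of its proteins descend from those of the bacterial ribosome and others exist only in mitochondria. Fully grown oocytes hold very many mitochondria, which are passed to the embryo.

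RNA came from germinal vesicle oocytes, the fully grown oocytes arrested in prophase of meiosis I. There were 5 arrays of wild type oocytes and 5 of CTCF-depleted oocytes, CTCF being a DNA-binding protein known for its part in chromatin loops and boundaries. The labels gave no strain, age, transgene, method of depletion or number of oocytes, nor whether samples came from separate animals. The p-values therefore speak of the spread among these 10 arrays, part or all of which may be technical. Groups were taken from the sample titles and source names, because the description attached to all 10 samples, wild type included, speaks of CTCF depletion. The values are scaled intensities, and arrays have no read depth, so the number of arrays limits the precision.

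The Ctcf signal bore out the titles on both of its probe sets. On the dimmer one the wild type arrays read 877, 724, 805, 722 and 699.7 for replicates 1 to 5, and the depleted arrays 14.2, 7.07, 11.4, 9.94 and 61.1. On the brighter one the means were 1001 ± 76.0 and 36.3 ± 33.7 (SD, n = 5). Depleted replicate 5 kept the most Ctcf signal. All 10 oocyte markers checked, such as Zp3 and Gdf9, lay above the control level in both groups, and 0 were called by limma, with 2 at an unadjusted p under 0.05. That level is the brightest of 27 Bacillus control probe sets on each array, from 4.75 to 10.9. Markers of granulosa and cumulus cells, which surround the oocyte, summed to between 1029 and 2499 on wild type arrays and between 1023 and 1361 on depleted arrays, over 11 genes measured of 12. The highest sum, 2499, was that of wild type replicate 2, so counts are also given without it. Of these markers, all 11 lay above the control level by their group means, and 2 were called higher, Fshr and Nr5a2 (log2 fold changes 1.01 and 0.31). In limma 0 were called lower, with 1 lower at an unadjusted p under 0.05. Still, 7 of the 11 had log2 fold changes below 0, and their median was -0.10. Kitl had -0.45 without overlap of the groups (limma adjusted p = 0.063). Markers of theca and stroma summed to at most 77.3, with 4 of 8 above the control level in wild type and 3 of 8 in depleted oocytes. Those of blood, immune and endothelial cells summed to at most 179.8, with 6 of 9 and 5 of 9 above it. In limma, 0 of either list were called, and 0 had an unadjusted p under 0.05. The part of other cells in the results was not tested. In such samples, less RNA per cell and fewer cells of a type cannot be told apart.

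All 29 genes lay above the control level on all 10 arrays on their brightest probe set, the one that stands for a gene throughout unless another is named. Wild type mean signals ran from 33.8 for Mrps34 to 2330.0 for Mrps22, whose protein exists only in mitochondria and has been linked to ovarian failure. Probe sets differ in how well they bind, so these signals do not rank the genes. The coefficient of variation between wild type arrays had a median of 6.16% over the 29 genes, and 6.49% between depleted arrays. The signals of the 29 genes summed to between 19725 and 20442 on wild type arrays. On depleted arrays they summed to 20460, 21871, 19770.4, 21011 and 20682 for replicates 1 to 5. The groups overlapped only through depleted replicate 3. Brighter genes weigh more in this sum, and Mrps16, named when the set was chosen, is part of it.

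In depleted oocytes, 6 of the 29 genes rose and 4 fell, 34.5% in all, beside 16.4% of all 13811 genes tested (limma, Benjamini-Hochberg adjusted p under 0.05 over all tested probe sets). That share holds Mrps16 and Mrps2, named when the set was chosen. Without them, 5 of 27 genes rose and 3 fell, 29.6%. Mrps16 rose 2.17-fold and Mrps2 fell 2.55-fold. The other 8 changes were at most 1.28-fold: Mrps7, Mrps15, Mrps26, Mrps18b and Mrps25 rose, and Mrps5, Mrps24 and Mrps33 fell. By direction, the backgrounds were 7.26% called higher and 9.12% called lower. Mrps16 and Mrps2, the pair named when the set was chosen, were the only members called at 2-fold or more, and nothing is read from that count, which stood beside 1.93% of all genes. The median log2 fold change of the 29 genes was 0.023, beside -0.017 over all genes tested, with 17 values above 0 and 12 below. The groups did not overlap for 8 genes, 4 higher and 4 lower, or 27.6%, beside 14.2% of all genes. This share also holds Mrps16 and Mrps2, named when the set was chosen, so no excess is read from it. The others were Mrps5, Mrps17, Mrps24, Mrps25, Mrps26 and Mrps33. With each array centred instead on the median of its log2 values, 7 rose and 1 fell, and over all genes the calls went from 1003 higher and 1260 lower to 1374 higher and 921 lower. Without wild type replicate 2, 6 rose and 3 fell, beside 14.0% of all genes called without it. The log2 ratio of 3-prime to 5-prime signal of control transcripts is a sign of RNA quality. It ran from 2.80 to 3.11 on wild type and from 2.60 to 2.96 on depleted arrays. With it as a covariate, 2 rose and 3 fell, 5 of 29, beside 13.9% of all genes. Mrps15, Mrps18b, Mrps25, Mrps26, Mrps5 and Mrps33 were not called then, and the falls were Mrps2, Mrps24 and Mrps18a, whose protein lies in the large subunit.

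The smaller calls were sensitive to single arrays. Without wild type replicate 3, 3 rose and 1 fell, 4 of 29, beside 13.6% of all genes called without that array. Without depleted replicate 4, 3 rose and 1 fell, 4 of 29, beside 13.5%. With either left out, the Mrps share lay near that of all genes. Without wild type replicate 1, 5 rose and 2 fell, beside 14.1%. There were 4 rises and 2 falls without wild type replicate 4, beside 13.9%, and as many without depleted replicate 1, beside 14.7%. Leaving out depleted replicate 5 gave 5 rises and 1 fall, beside 14.8%. Mrps16, Mrps7 and Mrps2 were called whichever array was left out, and all these counts hold Mrps16 and Mrps2, named when the set was chosen.

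**Figure D1:**
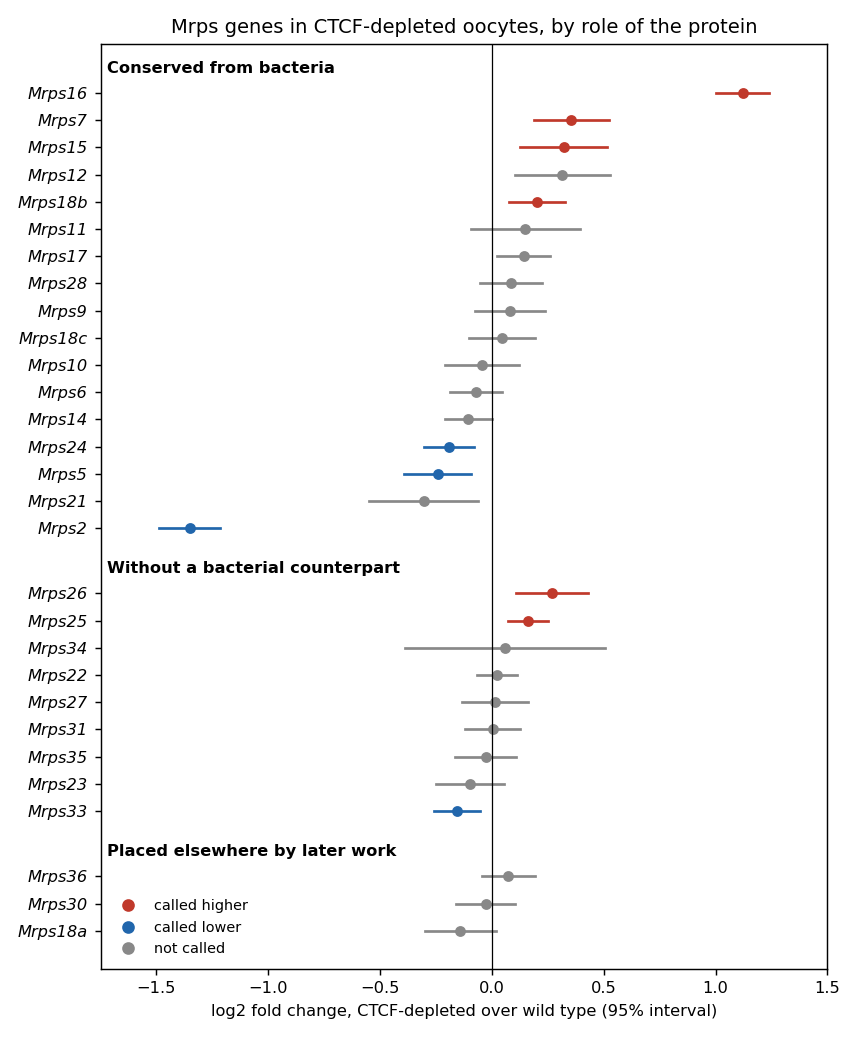
Log2 fold change of each of the 29 Mrps genes, CTCF-depleted over wild type, on its brightest probe set, with 95% intervals from limma, grouped by the role of the protein and coloured by call. Mrps16 at 1.12 and Mrps2 at -1.35 stand far from the other 27 genes, which lie between -0.31 and 0.35.

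Among the 17 proteins conserved from bacteria, 4 genes rose and 3 fell, 41.2%, beside 16.4% of all genes. Those called include Mrps16 and Mrps2, named when the set was chosen. Most of the 17 carry the number of their bacterial counterpart, which Mrps24 and Mrps28 do not. Mrps16 encodes a protein of the subunit's body, and its loss causes a mitochondrial disease in humans. The wild type arrays read 575, 536, 558, 565 and 543 for replicates 1 to 5 and the depleted arrays 1182, 1354, 1213, 1180.3 and 1130.3. Every depleted array lay far above every wild type array. The means were 555 ± 15.9 and 1212 ± 84.9 (SD, n = 5). With its SE, the log2 fold change was 1.12 ± 0.056 (limma adjusted p = 1.02e-09). Mrps16 has a single probe set, so the rise could not be checked on another.

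Mrps2 encodes another conserved protein of the small subunit, also tied to mitochondrial disease. Its wild type arrays read 477, 528, 538, 569 and 521 and its depleted arrays 214, 201, 198, 203 and 208. The groups were far apart, and the depleted arrays lay close together. The means were 527 ± 33.3 and 205 ± 6.47 (SD, n = 5). With its SE, the log2 fold change was -1.35 ± 0.064 (limma adjusted p = 5.74e-10). The dimmer probe set of Mrps2 gave 30.0, 30.2, 33.4, 33.7 and 27.8 against 12.8, 11.2, 8.70, 11.5 and 19.5. It also separated the groups, with a log2 fold change of -1.17 ± 0.18 (limma adjusted p = 3.21e-04). Depleted replicate 5 read highest of the depleted arrays there, while on the brighter probe set depleted replicate 1 did. Whether these signals follow the Ctcf signal left on an array was not tested.

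**Figure D2:**
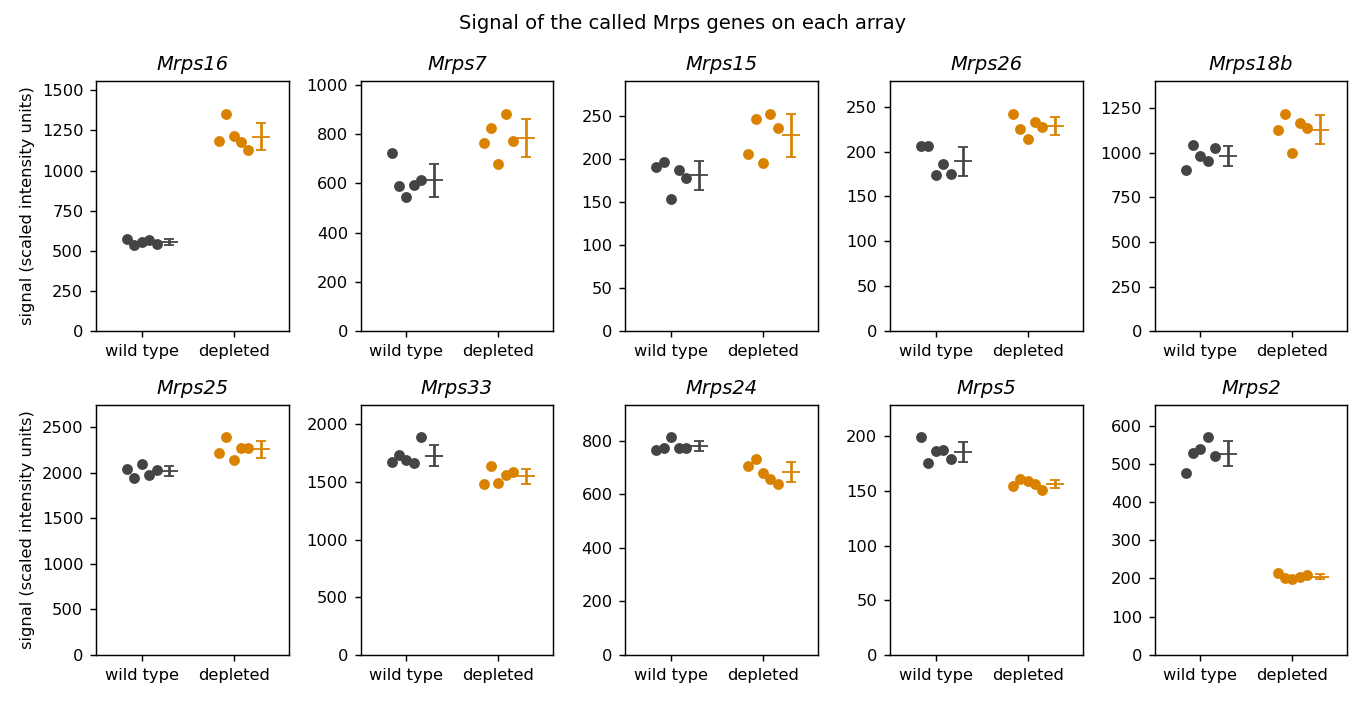
Signal of the 10 called Mrps genes on each array, in scaled intensity units on linear axes that start at 0, as points for the 5 wild type and 5 CTCF-depleted arrays with the mean and SD beside them. The groups are far apart for Mrps16 and Mrps2, lie side by side for Mrps5, Mrps24, Mrps25, Mrps26 and Mrps33, and overlap for Mrps7, Mrps15 and Mrps18b.

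The sequences before the start sites of both genes are shown because these members changed most and in opposite directions. They come from RefSeq promoter windows of build GRCm38.p6, 250 bases before the most upstream listed start, written 5′ to 3′ on the gene's strand, with CpG dinucleotides in capitals. The array files name no build. The annotated span of Mrps2 in RefSeq begins upstream of the start listed there, so this window lies inside the span.
Mrps2, chr2:28467816-28468065, plus strand: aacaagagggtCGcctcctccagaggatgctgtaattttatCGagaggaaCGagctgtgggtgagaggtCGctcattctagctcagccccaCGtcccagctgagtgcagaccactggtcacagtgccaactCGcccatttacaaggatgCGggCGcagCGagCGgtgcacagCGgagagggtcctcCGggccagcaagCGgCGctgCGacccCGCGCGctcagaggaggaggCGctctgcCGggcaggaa
Mrps16, chr14:20393635-20393884, minus strand: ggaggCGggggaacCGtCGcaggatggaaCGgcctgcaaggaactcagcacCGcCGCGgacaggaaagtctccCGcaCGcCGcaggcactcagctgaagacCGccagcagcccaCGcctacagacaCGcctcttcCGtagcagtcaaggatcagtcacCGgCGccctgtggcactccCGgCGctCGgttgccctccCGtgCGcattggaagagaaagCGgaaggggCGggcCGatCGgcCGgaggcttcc
The Mrps2 stretch holds 20 CpG dinucleotides and 63.6% G or C, and the Mrps16 stretch 26 and 68.0%. Both are CpG-dense, and the members varied. The 27 windows of the 26 members listed, each of 300 bases with 50 after the start, held from 11 to 39 CpG dinucleotides with a median of 24. The lowest, that of Mrps36, held more than 58.6% of all windows did. The median of all 32851 windows was 7, and 27 of 27 member windows lay above it.

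A few short patterns known from promoters of this kind were searched on both strands of the 300-base windows. The core consensus of the CTCF motif matched in 0 of the 26 members and in 0.557% of all windows. CCGGAAG, the core of the ETS motif bound by nuclear respiratory factor NRF-2 (GABP), matched in 11 of 26 members, 4 of them among the 10 called genes, and in 8.86% of all windows. The consensus of nuclear respiratory factor NRF-1 matched in 0 of 26 members and in 1.27% of all windows. AAGATGGCG, a YY1 pattern, matched in 4 of 26 members and in 1.40% of all windows. A match or its lack only describes these letters, and the patterns were not set against windows of equal CpG content. Matches in called members are shown for Mrps16, which has another ETS match, and for Mrps26 and Mrps24, with the pattern or its reverse complement in capitals.
Mrps16 ETS, chr14:20393550-20393572, minus strand: ggggcgctCTTCCGGgcttcagg
Mrps26 ETS, chr2:130563735-130563757, plus strand: cgcggccaCTTCCGGgccgggcg
Mrps24 YY1, chr11:5707652-5707673, minus strand: gccggcccAAGATGGCGtggtc

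Mrps7 encodes a protein that binds the ribosomal RNA early and organises the head of the subunit. The wild type arrays read 725, 589, 546, 594 and 615 and the depleted arrays 763, 826, 679, 883 and 772. Only wild type replicate 1 reached into the depleted range. The log2 fold change was 0.35 ± 0.079 (SE; limma adjusted p = 0.00651).

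Mrps15, the counterpart of another early RNA-binding protein, read 191, 197, 154, 188 and 178 on wild type arrays and 206, 247, 196, 253 and 237 on depleted arrays. Here only wild type replicate 2 passed the lowest depleted array. The log2 fold change was 0.32 ± 0.092 (limma adjusted p = 0.0283), its other tested probe sets gave 0.18 and -0.17, neither called, and the mean over the 3 gave 0.11 and was not called (adjusted p = 0.661, range 0.0134 to 0.661 over 21 alternatives). Mrps15 also lost its call without wild type replicate 3 or 5 or depleted replicate 2, 4 or 5.

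Mrps18b, 1 of 3 paralogues related to a single bacterial protein, read 904, 1041, 984, 953 and 1024 on wild type and 1129, 1219, 997, 1166 and 1136 on depleted arrays. Depleted replicate 3 lay within the wild type range. Its log2 fold change was 0.20 ± 0.06 (limma adjusted p = 0.035), and the call was lost without any of 7 arrays: wild type replicates 1, 3 and 4 and depleted replicates 1, 2, 4 and 5. It was also lost with the 3-prime to 5-prime ratio as a covariate (adjusted p = 0.121, range 0.00917 to 0.121 over 21 alternatives), without the filter on low signal and without the intensity trend. The paralogues Mrps18a and Mrps18c had log2 fold changes of -0.14 (95% interval -0.30 to 0.016) and 0.045 (-0.10 to 0.19) and were not called. Whether the 3 paralogues differ in response was not tested.

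The falls in this class were small apart from Mrps2. Mrps5, the counterpart of a bacterial protein that bears on reading accuracy, read 199, 175, 187, 187 and 179 on wild type arrays and 154, 161, 159, 156 and 151 on depleted arrays. The groups did not overlap, and the log2 fold change was -0.24 ± 0.071 (SE; limma adjusted p = 0.0322). The other 4 probe sets of Mrps5 gave -0.42, which was called, and -0.63, -0.10 and 0.15, which were not. The mean over the 5 was not called (-0.25, adjusted p = 0.118), nor was Mrps5 with arrays centred on their medians (adjusted p = 0.106), with the replicate number as a block (adjusted p = 0.0567, range 0.0233 to 0.118 over 21 alternatives), or without wild type replicate 1, 3 or 4 or depleted replicate 1, 4 or 5.

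Mrps24, which corresponds to a bacterial protein at the messenger RNA entry, read 766, 773, 813, 775 and 774 on wild type and 707, 734, 679, 657 and 641 on depleted arrays. All depleted arrays lay below all wild type arrays. The log2 fold change was -0.19 ± 0.053 (limma adjusted p = 0.024), and the other probe set gave -0.084, not called. Both Mrps24 probe sets are of a type that can bind transcripts of several genes. The call was lost under median centring (adjusted p = 0.134, range 0.00972 to 0.134 over 21 alternatives), with the mean over both probe sets, and without wild type replicate 3 or depleted replicate 4 or 5.

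The remaining 10 conserved members were not called. Mrps12, the counterpart of the protein at the decoding centre, lay just outside the threshold. It read 376, 416, 343, 338 and 369 on wild type and 438, 609, 386, 466 and 418 on depleted arrays, where depleted replicate 2 was highest, and its log2 fold change was 0.32 ± 0.10 (limma adjusted p = 0.0505). Mrps21 had -0.31 ± 0.11 (adjusted p = 0.0959), with wild type replicate 5 at 252 below the other wild type arrays. For Mrps17 the groups did not overlap, but its value of 0.14 ± 0.056 did not pass (adjusted p = 0.119). The other 7, Mrps6, Mrps9, Mrps10, Mrps11, Mrps14, Mrps18c and Mrps28, had values from -0.10 to 0.15.

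Mrps14, which corresponds to a protein of the head of the subunit, differed between its probe sets. On the brighter one the means were 1699.6 ± 107 and 1578 ± 44.4 (SD, n = 5), with a log2 fold change of -0.10 ± 0.049 that was not called. On the dimmer one the wild type arrays read 124, 122, 116, 114 and 126 and the depleted arrays 97.5, 77.5, 90.3, 85.2 and 85.9. These groups did not overlap, and this probe set was called, at -0.45 ± 0.088 (limma adjusted p = 0.00207). Of the 47 tested probe sets of the family, 7 were called higher and 7 lower, beside 12.6% of all 27022 tested. These calls include the probe sets of Mrps16 and Mrps2, the pair named when the set was chosen. Mrps2, Mrps5 and Mrps25 also count there with more than 1 probe set each, so no excess is read from the count. Of 10 genes with more than 1 tested probe set, 3 had the same sign on all of them (Mrps2, Mrps14 and Mrps24).

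**Figure D3:**
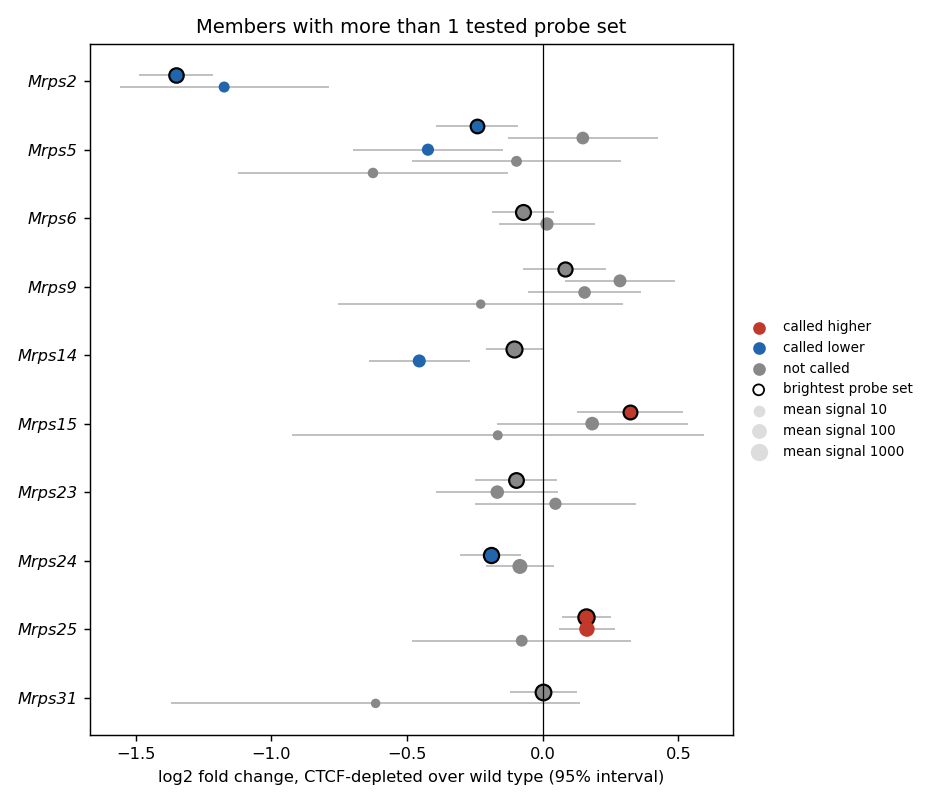
Log2 fold change, CTCF-depleted over wild type, of every tested probe set of the 10 Mrps genes that have more than 1, with 95% intervals, 1 point per probe set sized by mean signal and ordered by it within a gene. Both Mrps2 points lie below -1, while the points of Mrps5 run from -0.63 to 0.15, and dim probe sets have wide intervals.

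Among the 9 proteins without a bacterial counterpart, 2 genes rose and 1 fell, 33.3%, beside 16.4% of all genes. No difference between the classes was tested. Mrps26 read 206, 206, 174, 186 and 175 on wild type and 242, 226, 214, 233 and 228 on depleted arrays. All depleted arrays lay above all wild type arrays, and the log2 fold change was 0.27 ± 0.076 (SE; limma adjusted p = 0.026). The call was lost without any of 5 arrays, wild type replicates 3, 4 and 5 and depleted replicates 1 and 4, and with the 3-prime to 5-prime ratio as a covariate (adjusted p = 0.0911, range 0.00803 to 0.0911 over 21 alternatives).

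Mrps25 read 2048, 1947, 2092, 1980.5 and 2029 on wild type and 2216, 2390.0, 2141, 2273 and 2275 on depleted arrays, also without overlap. Its log2 fold change was 0.16 ± 0.043 (limma adjusted p = 0.0191), a second bright probe set gave 0.16 ± 0.049 and was called, and a dim one gave -0.077. The mean over the 3 gave 0.082 and was not called, nor was Mrps25 without wild type replicate 2 (adjusted p = 0.0561, range 0.013 to 0.527 over 21 alternatives), the array with the highest granulosa marker sum.

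Mrps33 read 1670.4, 1729.6, 1688, 1664 and 1885 on wild type and 1480.1, 1635, 1492, 1556 and 1584 on depleted arrays. The groups lay close without overlapping. Its log2 fold change of -0.16 ± 0.049 (limma adjusted p = 0.0451) was the smallest of the called members, and it passed with only 1 of the 10 arrays left out, depleted replicate 2. The other 6, Mrps22, Mrps23, Mrps27, Mrps31, Mrps34 and Mrps35, had values from -0.10 to 0.057 and were not called. Their 95% intervals differed in width: that of Mrps22 ran from -0.067 to 0.11, and that of the dim Mrps34 from -0.39 to 0.50.

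The names Mrps18a, Mrps30 and Mrps36 are historical: later structures place the first pair in the large subunit, and the third belongs to the 2-oxoglutarate dehydrogenase complex. In limma without covariates, 0 of the 3 were called, 0 had an unadjusted p under 0.05, and they had log2 fold changes of -0.14, -0.028 and 0.072. RefSeq also lists Mrps36 pseudogenes, whose transcripts its probe set could bind.

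Small-subunit proteins known under other names, and factors that build or serve the mitochondrial ribosome, were read beside the 16.4% of all genes called. Of Dap3, Chchd1 and Ptcd3, proteins of the small subunit itself, 0 rose and 0 fell in limma after Benjamini-Hochberg adjustment, 0 had an unadjusted p under 0.05, and their log2 fold changes were 0.063, 0.023 and 0.13. Of 10 assembly factors tested, 0 rose and 1 fell in limma, with 2 higher at an unadjusted p under 0.05. Tfb1m, which methylates the small ribosomal RNA, had -0.30 ± 0.066, but its other, dimmer probe set gave 0.086. Of 13 translation factors, 0 rose, with 1 higher at an unadjusted p under 0.05, and 2 fell: Tsfm, the exchange factor of the elongation factor Tufm, at -0.64 ± 0.14, and the translocation factor Gfm1 at -0.34 ± 0.071. The second probe set of Gfm1 was also called, at -0.47 ± 0.13. That of Tsfm gave -0.50 ± 0.35, was not called, and lay above the control level on only 1 array per group.

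Of 47 Mrpl genes of the large subunit, 6 rose and 3 fell, 19.1%, near the 16.4% of all genes, with a median log2 fold change of 0.029, and with depleted replicate 2 left out 5 fell. Mrpl23 fell furthest, at -1.65 ± 0.086 (limma adjusted p = 1.85e-09), the other falls were Mrpl48 (-0.36) and Mrpl51 (-0.24), and the rises were Mrpl16 (0.47), Mrpl9 (0.41), Mrpl43 (0.35), Mrpl27 (0.33), Mrpl17 (0.23) and Mrpl39 (0.15). Another bright probe set of Mrpl48 gave -0.095 and was not called. Of 22 genes of the cytosolic small subunit, 0 rose in limma (1 at an unadjusted p under 0.05) and 3 fell, Rps20, Rps15 and Rps10, or 13.6%, also near that share, with a median of -0.072. Rps10 was called at -0.18, while its other tested probe sets gave 0.0074, -0.044, 0.21 and -0.068 and were not called. No difference between these lists and the Mrps genes was tested. No probe set with a single mitochondrially encoded symbol was tested.

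**Figure D4:**
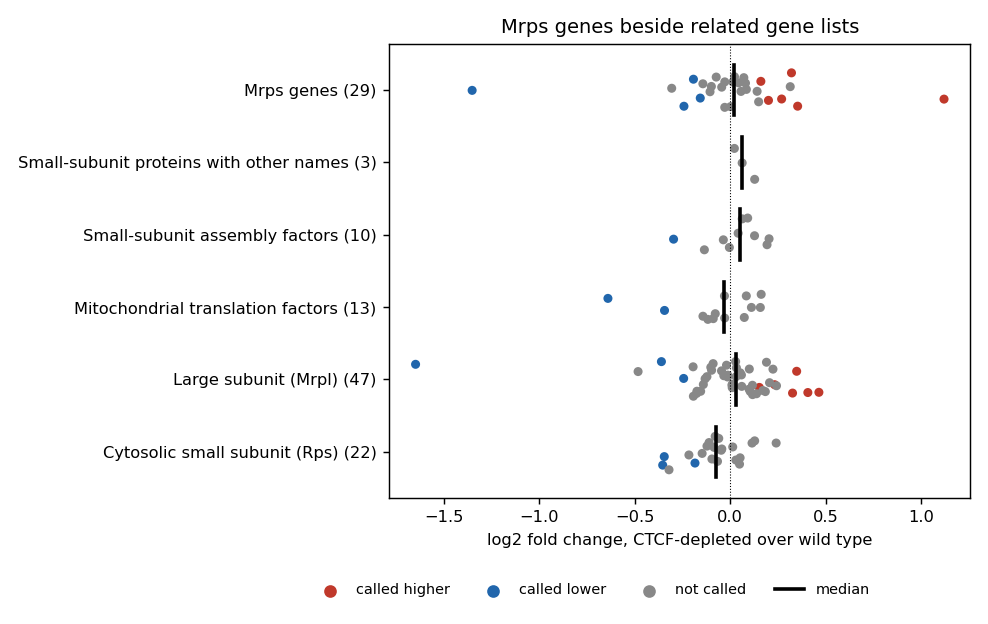
Log2 fold change, CTCF-depleted over wild type, of each tested gene in the Mrps family and in 5 related lists, 1 point per gene coloured by call, with a black bar at the median and the number of genes in brackets. All 6 medians lie between -0.072 and 0.063, and single genes such as Mrps16, Mrps2 and Mrpl23 lie far from them.

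The genes beside Mrps2 and Mrps16 on the chromosome were compared with the 16.4% called among all genes. In RefSeq order, 7 of the 10 nearest protein-coding genes of Mrps2, 5 on either side, were tested, and 1 was called: Olfm1, a secreted protein gene, with a log2 fold change of 0.48 ± 0.11 (SE), opposite to Mrps2. The genes directly beside Mrps2, 1700007K13Rik and Gbgt1, did not pass the filter on low signal. Of the 10 nearest genes of Mrps16, 8 were tested and 1 was called, Fam149b at 0.33 ± 0.081. The direct neighbours of Mrps16 were not called, Dnajc9 at -0.091 ± 0.064 and the dim Cfap70 at -0.17 ± 0.25. For all 10 called members, 16 of 20 direct neighbours were tested and 2 were called, beside 16.4% of all genes. Both flank Mrps7 and moved in its direction: Gga3, a trafficking adaptor, at 0.24 ± 0.05 and Mif4gd, which acts in translation of histone messages, at 0.87 ± 0.092. These comparisons with neighbours were chosen after values were seen.

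**Figure D5:**
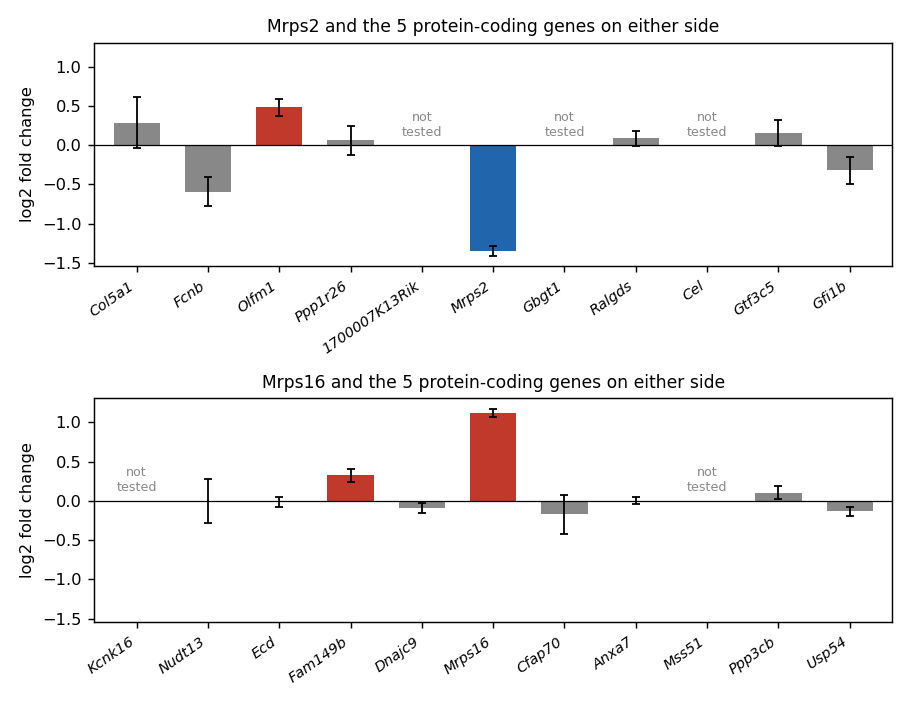
Log2 fold change, CTCF-depleted over wild type, of Mrps2 and Mrps16 and of the 5 protein-coding genes on either side of each in RefSeq gene order, as bars with SE, coloured where called and marked where not tested. The bars of the neighbours lie between -0.59 and 0.48, short of Mrps2 at -1.35 and Mrps16 at 1.12.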

How the data were processed

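Total RNA signals of germinal vesicle oocytes were read from 10 single-colour Affymetrix arrays, 5 per group. The deposited values are linear intensity signals made by the authors with the MAS5 algorithm, per the processing notes of the submitters (version not given in the sources used here). Each array has the same mean signal after trimming 2% at either end, so a change is relative to the array as a whole. Probe sets were named from the platform annotation, and 1 that names an Mrps gene and another gene was left out.

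Of 45101 probe sets, the 64 controls were left out. The log2 of the signal plus 2.47 (the 25th percentile of all values) was tested where its mean reached the 40th percentile, a signal of about 5.13, which left 27022 probe sets and 13811 genes. This offset makes changes of dim genes look smaller. limma 3.58.1 (R 4.3.3; lmFit, eBayes with an intensity trend) compared the groups without covariates, and p-values were adjusted by Benjamini-Hochberg over all tested probe sets. A gene was called at an adjusted p under 0.05 on its brightest tested probe set. The test was checked on simulated data. No 2 arrays held identical values. Replicate numbers have no stated pairing.

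Full values were given for Mrps2, Mrps16, every called member, and members whose probe sets differ in sign with 1 called. Mrps12, just outside the threshold, and Mrps14, whose probe sets differ in call, were added after their values were seen. The members, lists, roles, motifs and markers were chosen with earlier results of these data known, and the list of cytosolic Rps genes was trimmed of kinases, and the CTCF and NRF-1 patterns were tightened to their consensus, after values were seen. Alternatives were other offsets, filters, scalings, variance models, array weights, covariates, thresholds and each array left out.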

Additional observations from a re-analysis of the deposited data

Results flagged for a closer look

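Of 70 groups of 5 arrays examined with Dixon's test, 58 of them for the 29 Mrps genes, 7 had an array far from the others, 4 of these among the members. Chance gives about 1 in 20. Mrps21 in wild type replicate 5 read 252, the lowest of its group, with the next at 354. Mrps22 in depleted replicate 1 read 2232, below the next at 2382. Mrps24 in wild type replicate 3 read 813, above the next at 775, and Mrps24 was not called without that array. Mrps31 in depleted replicate 3 read 1084, below the next at 1206. Both Ctcf probe sets were highest among depleted arrays in replicate 5, at 61.1 against 14.2 for the next and at 95.8 against 29.3. The summed granulosa and cumulus marker signal of wild type replicate 2 was 2499, against 1152 for the next wild type array.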

How the results depend on the processing

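Mrps16, Mrps2 and Mrps7 were called in the same direction under all 23 alternatives, with log2 fold changes of 1.08 to 1.17, -1.39 to -1.26 and 0.30 to 0.42. Mrps16 and Mrps2 were named when the set was chosen, so their direction is only described. Among the called members, 0 reversed in sign. Of members not called, Mrps27, Mrps31, Mrps34 and Mrps35 changed sign with single arrays left out, Mrps34 running from -0.097 to 0.20. The other 7 calls were lost in at least 1 alternative each. With arrays centred on their medians, 1 Mrps gene and 3 Mrps probe sets fell and 2 assembly factors rose, beside 16.6% of all genes called. The median of all genes moved from -0.017 to 0.034 there. Without the intensity trend, 3 Mrps genes rose and 2 fell, beside 12.3% of all genes called. There, 3 Mrps probe sets rose and 4 fell, and 0 assembly factors fell. With the 3-prime to 5-prime ratio as a covariate, 2 Mrps genes and 2 Mrps probe sets rose. With a gene's probe sets averaged, 1 assembly factor rose, 0 fell, and 1 translation factor fell, beside 16.2% of all genes called. At an adjusted p under 0.01, 2 Mrps genes rose and 1 fell, 2 Mrps probe sets rose and 3 fell, and over all genes 528 rose and 740 fell. That is 3 of 29 Mrps genes beside 9.18% of all genes. At an adjusted p under 0.10, 5 Mrpl genes fell and 2 assembly factors rose, beside 21.9% of all genes called. The causes were not tested.

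With 1 array left out, 3 to 7 Mrps genes rose and 1 to 4 fell, 3 to 7 Mrps probe sets rose and 3 to 7 fell, 4 to 7 Mrpl genes rose and 3 to 5 fell, and 0 to 1 assembly factors rose. The lowest Mrps counts, 3 and 1, came without wild type replicate 3 and without depleted replicate 4. The falls were also 1 without depleted replicate 5, and 2 without wild type replicate 1, wild type replicate 4 or depleted replicate 1. Same-numbered arrays deviated together with correlations of 0.0024 to 0.051, and 2 of 5 arrays correlated best with their own number. These values cannot decide whether same-numbered arrays were paired, because many tested probe sets are dim. With a replicate block, 7 Mrps genes rose and 4 fell.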
